A study of Homo sapiens with 27 samples.

Results

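The NRF2 antioxidant genes examined here were HMOX1, SLC7A11, NQO1, GCLM, GCLC, TXNRD1, SRXN1, NFE2L2 and KEAP1, 9 of the 23228 genes of the deposited table, taken by symbol. They lie on chromosomes 22, 4, 16, 1, 6, 12, 20, 2 and 19 in that order. They were grouped because HMOX1 and several of its pathway partners had been seen to differ between 2 hairpins against GATA2 in the ARCaPM-DR line. That difference is therefore given below as a description without a test, while the mean effect of the hairpins, the other lines and the baseline levels were tested.

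Total RNA was sequenced from ARCaPM-DR, DU145-DR and 22Rv1-DR, which are named after 3 established human prostate cancer cell lines and which the labels class as Ch-CRPC. The suffix DR is not spelled out in the labels. In each line 3 groups were compared: the hairpin shGATA2b against the transcription factor GATA2, a second hairpin shGATA2a against the same gene, and Control, a hairpin of random sequence. Each of the 9 groups had 3 replicates, 27 libraries in all, and the labels do not say whether replicates came from separate cultures. The question set by the design was which transcripts change when GATA2 is knocked down.

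NRF2, the protein of NFE2L2, is a transcription factor that KEAP1 holds in the cytoplasm and hands to a ubiquitin ligase. Oxidants and electrophiles modify KEAP1, NRF2 then builds up in the nucleus and, with a small MAF partner, binds antioxidant response elements near its targets. BACH1 competes for the same elements and represses HMOX1 until heme releases it. In many tumours the pathway is active without an oxidant and is known for resistance to drugs.

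The core letters of such elements occur in some of the promoters. RefSeq promoter windows (GRCh38.p14) of 300 bases, 250 before to 50 after the start of the gene, were at hand for 7 of the 9 genes, 10 windows in all. There was none for HMOX1 or SLC7A11, so these were not searched. The motif TGACNNNGC, searched on both strands, was found in 4 of the 10 windows, belonging to GCLM, TXNRD1 and KEAP1, and in 13.3% of the 35116 human promoters of the same length. No other motif was searched, and its first letters also occur in motifs of AP-1 and CREB factors. A window with a match is printed for each of the 3 genes, in the direction of the gene, because these genes moved in opposite directions after knockdown in ARCaPM-DR (GCLM and TXNRD1 up, KEAP1 down), with the matched 9 bases in capitals.
GCLM, chr1:93909381-93909680, minus strand: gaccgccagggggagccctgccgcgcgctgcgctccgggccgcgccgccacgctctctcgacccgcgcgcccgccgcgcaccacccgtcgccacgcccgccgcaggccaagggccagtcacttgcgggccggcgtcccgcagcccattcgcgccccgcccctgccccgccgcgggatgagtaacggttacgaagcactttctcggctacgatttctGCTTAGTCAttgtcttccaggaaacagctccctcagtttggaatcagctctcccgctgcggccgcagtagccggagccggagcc
TXNRD1, chr12:104286782-104287081, plus strand: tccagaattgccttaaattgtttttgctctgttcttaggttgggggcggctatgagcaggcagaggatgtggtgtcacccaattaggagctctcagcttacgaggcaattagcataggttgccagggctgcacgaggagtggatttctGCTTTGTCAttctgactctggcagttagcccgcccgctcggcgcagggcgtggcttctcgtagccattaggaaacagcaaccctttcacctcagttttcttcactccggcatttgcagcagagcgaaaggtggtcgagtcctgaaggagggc
KEAP1, chr19:10502722-10503021, minus strand: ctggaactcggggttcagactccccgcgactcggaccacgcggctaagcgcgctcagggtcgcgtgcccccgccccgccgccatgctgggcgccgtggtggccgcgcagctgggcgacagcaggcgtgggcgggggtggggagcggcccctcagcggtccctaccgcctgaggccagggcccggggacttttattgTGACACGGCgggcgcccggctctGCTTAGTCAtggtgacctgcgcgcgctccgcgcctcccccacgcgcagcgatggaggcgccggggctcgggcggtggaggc
The match began 34 bases before the start of GCLM and 102 bases before this start of TXNRD1. In KEAP1 the 2 matches began 54 and 31 bases before the start, and the second has the same letters, GCTTAGTCA, as the match in GCLM. A match is a description of these letters and not evidence of binding.

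The libraries held between 3.44 M reads, in ARCaPM-DR shGATA2a replicate 3, and 19.40 M (median 12.87 M). All values below are normalised read counts, which are not divided by gene length, so levels are compared within a gene and not between genes. GATA2 itself was lower in all 6 hairpin libraries than in every control library of each line, with log2 changes of -2.56 in ARCaPM-DR, -1.85 in DU145-DR and -1.71 in 22Rv1-DR (limma, adjusted p = 8.78e-05, 5.54e-05 and 0.0256). Of the 27 GATA2 values, 12 were not a whole number of reads, all of them in DU145-DR and 22Rv1-DR, with controls among them. The GATA2 changes in these lines rest on the values as deposited. Offsets were not searched for or removed in GATA2. KLK3, the gene of prostate-specific antigen, was at 0 in every library of ARCaPM-DR and DU145-DR and at 24.9 to 121 in 22Rv1-DR, where 1 of its values was not whole. The RNA came from bulk cultures, in which fewer cells of a kind and less RNA per cell cannot be told apart.

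SLC7A11 needs a caution wherever DU145-DR and 22Rv1-DR are concerned. In 3 of its control values the count was not whole, although 99.954% of all values above 0 in the table were, within 0.005 reads. Adding 1000 to DU145-DR Control replicate 3, 800 to 22Rv1-DR Control replicate 1 and 1300 to 22Rv1-DR Control replicate 2 gave whole reads of 8622, 4608 and 3773. No other multiple of 100 among 40 tried each way did so within 1e-05 reads. The sources used here do not say how these values arose. Results for SLC7A11 are given as deposited and with these offsets removed, and none of the other 8 genes had such a value.

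HMOX1, the enzyme that splits heme into biliverdin, carbon monoxide and iron, had the highest ratio of shGATA2b to shGATA2a in ARCaPM-DR. It had 5578, 5262 and 5609.6 normalised reads with shGATA2b, 568, 871 and 882 with shGATA2a, and 699, 1080.3 and 1657 with Control. Every shGATA2b library was above every shGATA2a and every control library, whereas the shGATA2a and control libraries overlapped. The group means were 5483 ± 192 with shGATA2b, 774 ± 178 with shGATA2a and 1145 ± 482 with Control (SD, n = 3 each). On the log2 scale shGATA2b exceeded shGATA2a by 2.85, a 7.22-fold ratio of log means. The comparison covers the 11284 genes averaging 50 or more in this line. Against the shared controls, shGATA2b stood 2.35 higher and shGATA2a 0.51 lower (log2 difference -0.51). GATA2 in the same libraries was at 17.3, 20.1 and 21.7 with shGATA2b, and at 26.4, 30.9 and 46.6 with shGATA2a, without overlap.

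**Figure D1:**
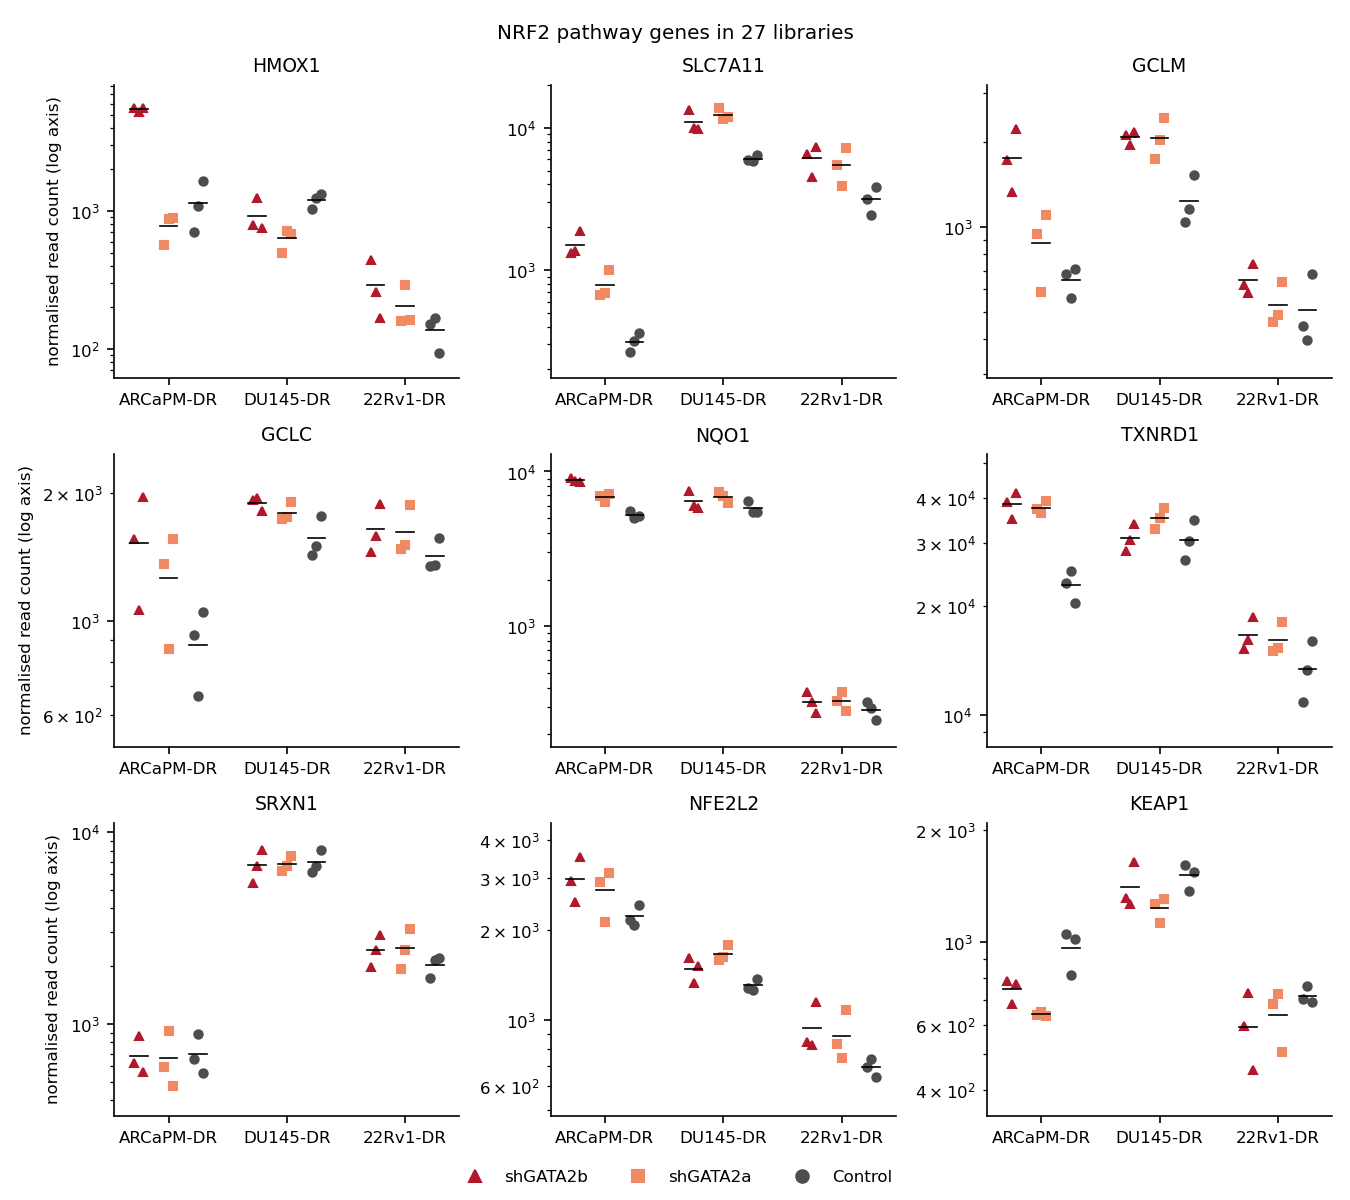
Normalised read counts of the 9 genes in all 27 libraries, on log axes, with shGATA2b, shGATA2a and Control from left to right within each line, a point for each library and a bar at the group mean. HMOX1 in ARCaPM-DR lies between 5262 and 5609.6 with shGATA2b and between 568 and 1657 in the other libraries of that line, and 3 SLC7A11 control points, described in the text, are not whole reads.

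The glutathione supply genes came next in the same comparison. SLC7A11, the cystine importer, had 1311, 1354 and 1868 normalised reads with shGATA2b, 670.3, 688 and 995 with shGATA2a, and 263, 315 and 360.2 with Control in ARCaPM-DR, so the 3 groups stood apart in that order. GCLM, the modifier subunit of the enzyme that limits glutathione synthesis, had 1735, 1327 and 2242 with shGATA2b, 942, 585 and 1108 with shGATA2a, and 681, 557 and 708 with Control. For GCLM the hairpin groups did not overlap, while shGATA2a overlapped the controls. The log2 differences of shGATA2b over shGATA2a were 0.95 for SLC7A11 (place 37 of the 11284 genes) and 1.03 for GCLM (place 28). GCLC, the catalytic subunit of the same enzyme, differed by 0.27 with overlapping groups.

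The other members differed by less than SLC7A11 and GCLM did in ARCaPM-DR. NQO1, a quinone reductase, had 9096, 8690.2 and 8612 normalised reads with shGATA2b, 6984, 6378 and 7151 with shGATA2a, and 5546, 4984 and 5125 with Control. These groups did not overlap, although the log2 difference between hairpins was only 0.37. KEAP1 differed by 0.22, NFE2L2 by 0.14, SRXN1, the sulfiredoxin that repairs overoxidised peroxiredoxins, by 0.08, and TXNRD1, the cytosolic thioredoxin reductase, by 0.03. All 9 differences were positive, with a median of 0.27, against a median of -0.0038 over all genes of the line. In 5 of the 9 genes every shGATA2b library lay above every shGATA2a library, as it did in 7.39% of all genes tested. The limma test of this comparison called 0.803% of all genes. Since the members were chosen on it, nothing is read from these counts.

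**Figure D2:**
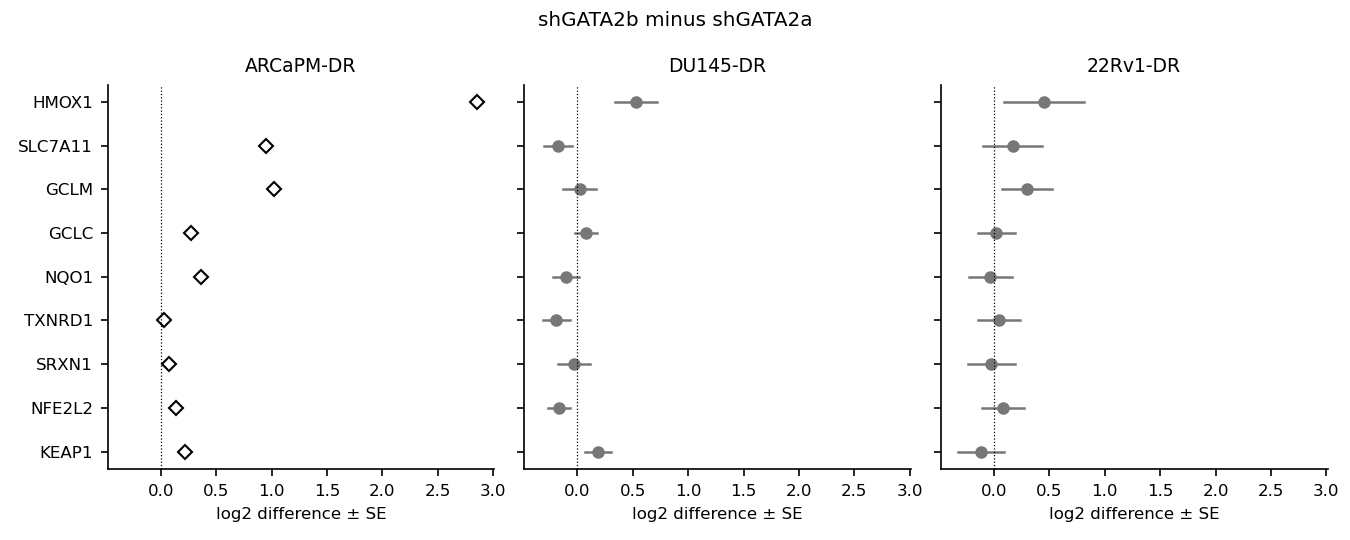
Log2 difference of shGATA2b minus shGATA2a for each gene in each line. Open diamonds in ARCaPM-DR are descriptions without a test, from 0.03 for TXNRD1 to 2.85 for HMOX1, and grey points in the other lines carry their standard error and did not pass the test.

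Genes of heme handling and its control also differed between the hairpins in ARCaPM-DR. They are given here as values without a test. BACH1, the repressor of HMOX1, had 601, 749.6 and 523 normalised reads with shGATA2b, 1385, 1432 and 1411 with shGATA2a, and 1018, 1230.1 and 881 with Control. All shGATA2b libraries were thus below, and all shGATA2a libraries above, every control library, a log2 difference of -1.19 between the hairpins. SLC40A1, the iron exporter ferroportin, had 116, 186 and 76.6 with shGATA2b, 441, 463 and 268 with shGATA2a, and 147, 195 and 106 with Control (log2 difference of the hairpins -1.68). Among small MAF partners, MAFK differed by 0.73 and MAFG by 0.27. SLC48A1, a heme transporter, differed by 0.72, and TFRC, the receptor for iron-laden transferrin, by 0.77. Of the 16 genes listed for heme and iron handling, 8 differed in the positive direction, with a median of 0.03.

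Other NRF2 targets and amino acid stress genes leaned towards shGATA2b in the same libraries. Of 28 further NRF2 targets measured, 22 were higher with shGATA2b than with shGATA2a (median log2 difference 0.26). The median over all genes of the line was -0.0038. TKT, the transketolase of the pentose phosphate pathway, differed by 0.99 between hairpins, with 20742, 18181 and 17593 normalised reads with shGATA2b, 10333, 10873 and 7583 with shGATA2a, and 11166, 10049 and 12223 with Control. All shGATA2b libraries were above the rest, and shGATA2a overlapped the controls. Of 16 ATF4 targets, which answer amino acid shortage, 15 were higher with shGATA2b (median 0.41). SLC7A5, a leucine importer, differed by 1.07, and SLC3A2, the chain that SLC7A5 and SLC7A11 share, by 0.84. Metal and heat stress genes, which share inducers with HMOX1, had a median of 0.28 over 14 genes, with 0.45 for HSPA1B and -0.45 for MT2A. The lists were chosen with earlier results of these data known, and this comparison had shown the members. Nothing is therefore read from these counts.

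**Figure D3:**
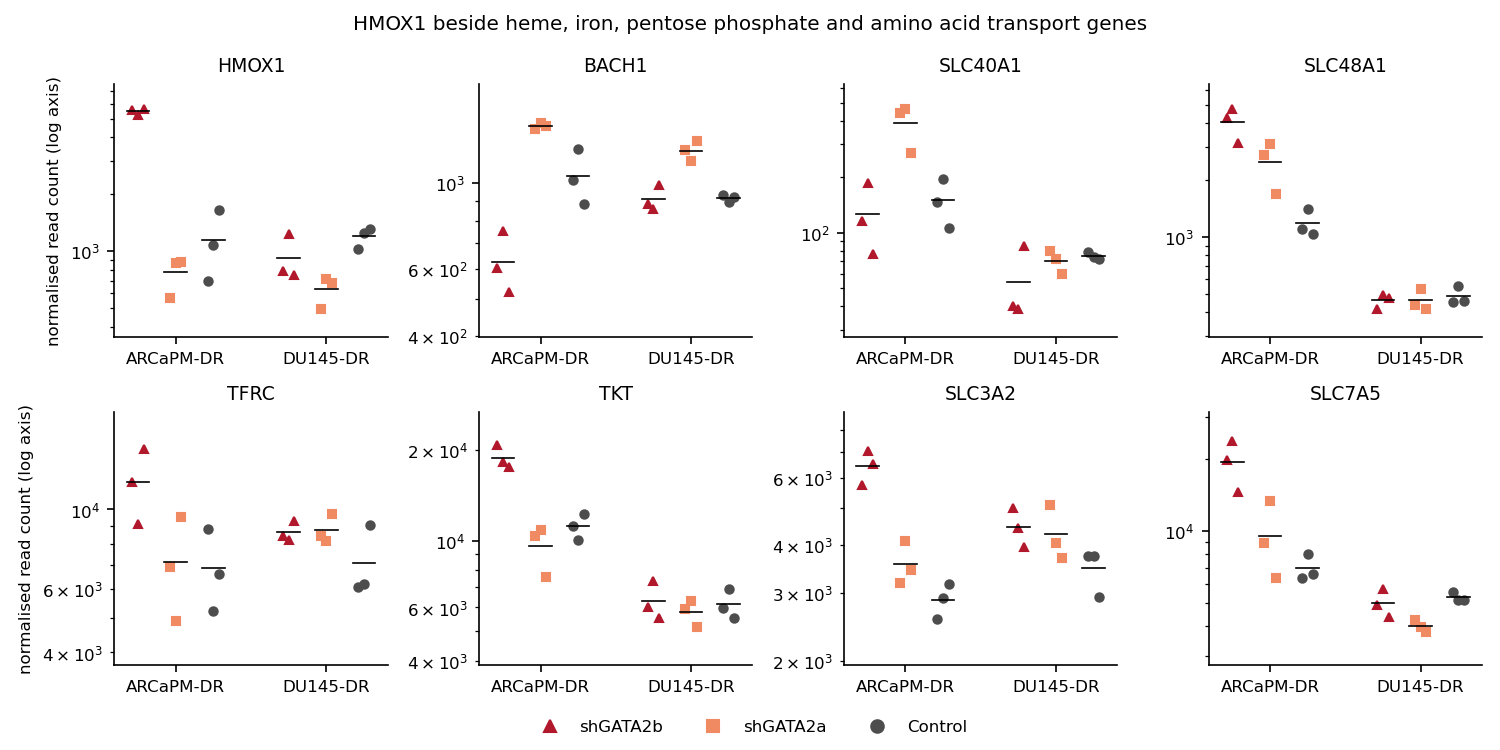
Normalised read counts on log axes of HMOX1 and 7 genes of heme and iron handling, the pentose phosphate pathway (TKT) and amino acid transport in ARCaPM-DR and DU145-DR, a point for each library and a bar at the group mean. In ARCaPM-DR, BACH1 lies between 523 and 749.6 with shGATA2b, between 1385 and 1432 with shGATA2a and between 881 and 1230.1 with Control.

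The same hairpin comparison in DU145-DR and 22Rv1-DR was not the comparison the members were chosen on, and was tested. None of the 9 genes passed the adjusted threshold of 0.05 with limma in DU145-DR (0 of 9) or in 22Rv1-DR (0 of 9), where 0% of all genes passed. At an unadjusted p under 0.05 there were 1 of 9 genes in DU145-DR, beside 787 of all 13362 tested, and 0 of 9 in 22Rv1-DR, beside 13 of 13757. DESeq2 called 12 genes of all in DU145-DR and 0 in 22Rv1-DR, and edgeR called 0 in each.

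HMOX1 in DU145-DR had 786, 1239.6 and 753 normalised reads with shGATA2b, 497, 717 and 684 with shGATA2a, and 1031, 1245 and 1319 with Control. The hairpin groups did not overlap, as in 4.65% of all genes with shGATA2b above, and HMOX1 was the sole member of which this held. Its shGATA2a libraries lay below all controls. The log2 difference was 0.53 (SE 0.19, unadjusted p = 0.015, adjusted p = 0.786). Same-numbered replicates of this line deviated together, and with the replicate number as a block the adjusted p was 0.0106, among 2.17% of all genes called.

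BACH1 ran opposite to HMOX1 in DU145-DR, in the same direction as BACH1 in ARCaPM-DR. It had 885, 856 and 988 normalised reads with shGATA2b, 1221, 1140.2 and 1288 with shGATA2a, and 935, 896 and 920.3 with Control. Again the hairpin groups did not overlap, and shGATA2a lay above all controls. The difference was -0.42 (SE 0.09, unadjusted p = 0.00066, adjusted p = 0.786), and with the replicate block the adjusted p was 0.0081. The remaining members differed by -0.19 to 0.18 between the hairpins in DU145-DR, including -0.17 (SE 0.13) for SLC7A11 and 0.02 (SE 0.15) for GCLM.

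In 22Rv1-DR, where 0 of the 9 genes had all shGATA2b above all shGATA2a libraries (1.05% of all genes), HMOX1 had 441, 261 and 167 normalised reads with shGATA2b, 159, 292 and 161 with shGATA2a, and 151, 167 and 93.7 with Control. The hairpin groups overlapped, with a log2 difference of 0.45 (SE 0.36, adjusted p = 0.999971). The other members lay between -0.12 and 0.30 there, the highest being GCLM (SE 0.22). BACH1 differed by -0.06 (SE 0.21).

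The mean effect of both hairpins against Control was tested in each line. Its random error is independent of that of the hairpin difference. In ARCaPM-DR, however, both use the hairpin libraries on which the members were chosen. Counts of members called in that line are therefore no independent support. In ARCaPM-DR 5 of the 9 genes rose and 1 fell with limma, beside 18.5% of all 13079 genes tested (9.86% up and 8.62% down). The median log2 change of the 9 genes was 0.64, against -0.0038 over all genes.

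**Figure D4:**
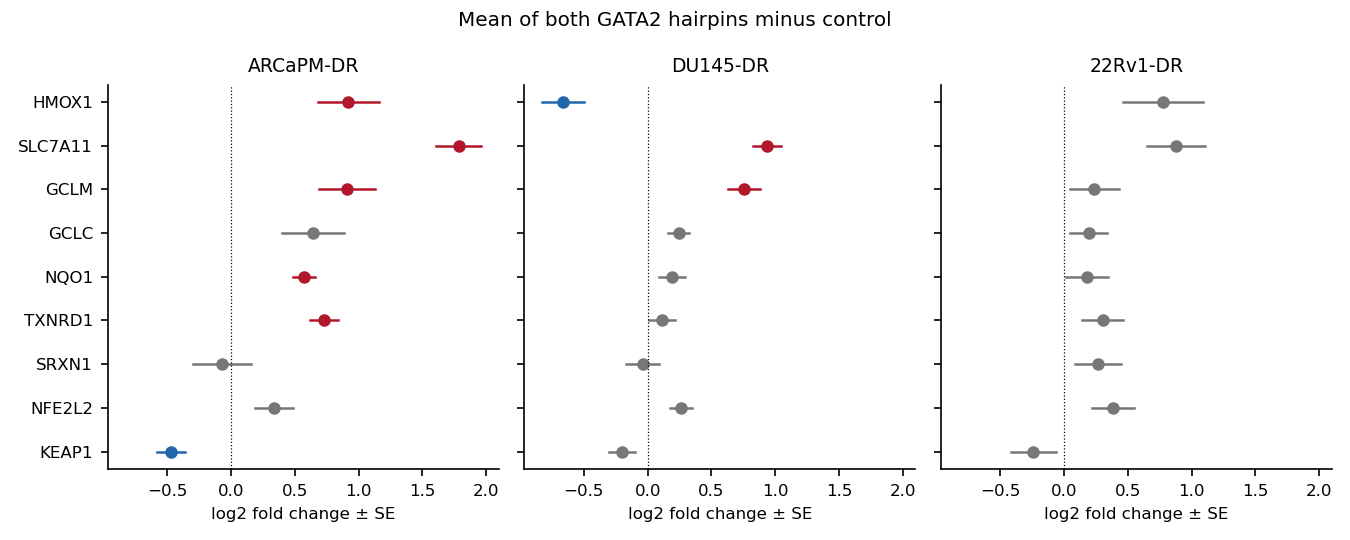
Log2 fold change of the mean of both hairpins against Control, with its standard error, for each gene in each line. Red points rose, blue points fell and grey points did not pass an adjusted p of 0.05, and the values run from -0.67 for HMOX1 in DU145-DR to 1.79 for SLC7A11 in ARCaPM-DR.

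Of the regulators in ARCaPM-DR, KEAP1 had 785, 683 and 774 normalised reads with shGATA2b, 638, 651 and 634 with shGATA2a, and 1052, 817 and 1023 with Control. All 6 hairpin libraries lay below all controls, and KEAP1 fell by 0.47 on the log2 scale (SE 0.11, adjusted p = 0.0175). Without Control replicate 1 or replicate 3 its adjusted p was 0.0899 or 0.0815. NFE2L2 had 2920.2, 2492 and 3512 with shGATA2b, 2899, 2133 and 3113 with shGATA2a, and 2167, 2078 and 2435 with Control. Of the 6 hairpin libraries 5 were above all controls, and the change of 0.34 (SE 0.15, adjusted p = 0.142) did not pass. Its adjusted p was 0.0318 without shGATA2a replicate 2, and 0.00282 with the replicate block, which called 45% of all genes.

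Among the glutathione genes, SLC7A11 rose by 1.79 (SE 0.18, adjusted p = 0.000203), a 3.45-fold ratio, with all 6 hairpin libraries above all controls as listed above. This change had been seen before the genes were chosen and is no independent support. None of its ARCaPM-DR values had an offset. GCLM rose by 0.91 (SE 0.22, adjusted p = 0.0182), with 5 of 6 hairpin libraries above all controls. Its adjusted p was 0.0646 without Control replicate 1 and 0.0754 without Control replicate 2. GCLC had 1555, 1059 and 1958 with shGATA2b, 1362, 857 and 1562 with shGATA2a, and 925, 662 and 1046 with Control. Of its 6 hairpin libraries 5 were above all controls. Its change of 0.64 (SE 0.24, adjusted p = 0.0959) did not pass with limma. The adjusted p was 0.0462 with DESeq2, 0.0123 in a fit of all 27 libraries, 0.0231 without shGATA2a replicate 2 and 0.0457 without shGATA2b replicate 2. With the replicate block it was 6.46e-06.

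TXNRD1 had 38833, 34941 and 41329.9 normalised reads with shGATA2b, 37114, 36247 and 39111 with shGATA2a, and 23226, 25118 and 20484 with Control in ARCaPM-DR. Both hairpin groups were above all controls at nearly the same level, and TXNRD1 rose by 0.73 (SE 0.11, adjusted p = 0.0017). NQO1 rose by 0.57 (SE 0.09, adjusted p = 0.0021), also with all 6 libraries above the controls. SRXN1 spanned 560.2 to 867 with shGATA2b, 474 to 914 with shGATA2a and 557 to 888 with Control, with a change of -0.07 (SE 0.23, adjusted p = 0.858). Genes with all 6 hairpin libraries above all controls were thus 3 of 9, SLC7A11, NQO1 and TXNRD1, beside 11% of all genes, and KEAP1 alone had all 6 below, beside 10%.

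HMOX1 passed the same test in ARCaPM-DR, with a mean change of 0.92 (SE 0.24, adjusted p = 0.0266), but the mean joins unlike hairpins. Its shGATA2b libraries were above all controls, and its shGATA2a libraries overlapped them or lay below. The adjusted p was 0.112 without Control replicate 1, 0.0755 without Control replicate 2 and 0.0591 without shGATA2b replicate 1.

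Some genes listed as markers of other cells changed with the hairpins in ARCaPM-DR, which need not mean that such cells were present. Of the macrophage and blood list, 1 of 2 tested genes fell, CD68 (log2 change -1.75, adjusted p = 0.0038), a lysosomal protein that is also found in tumour cells. The summed level of its 7 genes was 181 to 355 with shGATA2b, 311 to 735 with shGATA2a and 854 to 1363 with Control, while PTPRC, which marks all leukocytes, was at 1.32 or less and CD163 was at 0 in every library of this line. Of the fibroblast list, 1 of 2 tested genes rose, COL3A1 (2.01, adjusted p = 0.0088), and the sum of its 6 genes was 5691 to 11447 with shGATA2b, 7675 to 14933 with shGATA2a and 2368 to 4777 with Control, with PDGFRB at 0. The 5 endothelial genes summed to 5.18 to 50.1 with shGATA2b, 7.77 to 62.7 with shGATA2a and 44.9 to 154 with Control, with PECAM1 and KDR at 0. The 1 gene tested, ROBO4, changed by -1.78 and did not pass with limma. With the replicate block, which called 45% of all genes, its adjusted p was 0.000221. The part of these genes in the changes above was not tested.

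In DU145-DR 2 of the 9 genes rose and 1 fell, beside 16.7% of 13362 genes (8.72% up and 7.98% down). SLC7A11 had 13445, 9975 and 9805 normalised reads with shGATA2b, 13802, 11486 and 11876 with shGATA2a, and 5909.9, 5873 and 6458 with Control, the last of which becomes 7458 once its offset is removed. All 6 hairpin libraries were above all controls with or without that offset. SLC7A11 rose by 0.94 (SE 0.11, adjusted p = 0.000345) as deposited, and by 0.87 (adjusted p = 0.00095) with the offset removed. GCLM had 2126, 1958 and 2185 with shGATA2b, 1742, 2041 and 2447 with shGATA2a, and 1038, 1163 and 1526 with Control. It rose by 0.76 (SE 0.13, adjusted p = 0.0026), again with all 6 libraries above the controls. These were the 2 genes of 9 of which this held, beside 10% of all genes.

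HMOX1 fell in DU145-DR by 0.67 on the log2 scale (SE 0.16, adjusted p = 0.0159). All shGATA2a libraries and 5 of the 6 hairpin libraries were below all controls, and shGATA2b replicate 2, at 1239.6, was not. The adjusted p was 0.0746 without Control replicate 2 and 0.204 when all 27 libraries were fitted together. The other members did not pass: NFE2L2 changed by 0.26 (adjusted p = 0.0523) and GCLC by 0.24 (adjusted p = 0.0695), with 5 and 4 hairpin libraries above all controls. NFE2L2 passed with DESeq2 (adjusted p = 0.0262), with the filter of 50 (0.0476), without Control replicate 3 (0.0487) and without shGATA2b replicate 2 (0.0258), and GCLC with DESeq2 (0.0494) and without Control replicate 3 (0.0192). KEAP1 stood at -0.20 (adjusted p = 0.184), NQO1 at 0.19, TXNRD1 at 0.11 and SRXN1 at -0.04.

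Under the replicate block, 5 of the 9 genes passed upwards and 2 downwards in DU145-DR, 7 in all, beside 38.8% of all genes. The added genes were NFE2L2 (adjusted p = 0.00365), GCLC (0.0077) and NQO1 (0.021) above the controls and KEAP1 (0.0236) below them. Without the block, the endothelial list had 2 of 2 tested genes up in this line, ROBO4 and KDR, beside 8.72% of all genes. Its 5 genes together were at only 22.9 to 29.3 normalised reads with shGATA2b, 30.8 to 52.1 with shGATA2a and 10.4 to 13.5 with Control. PECAM1 was at 0 with shGATA2a and Control. Of the fibroblast list 1 of 2 tested genes fell without the block, COL1A1 (-0.74, adjusted p = 0.0153), beside 7.98% of all genes. The sums were 97.7 to 179 with shGATA2b, 97.9 to 117 with shGATA2a and 170 to 219 with Control. CD68, the 1 macrophage and blood gene tested, changed by -0.38 (adjusted p = 0.0908, and 0.000732 with the block). Its list summed to 390 to 454 with shGATA2b, 310 to 450 with shGATA2a and 409 to 609 with Control, with PTPRC at 0. The block also called COL3A1 (-0.68, adjusted p = 0.0135) in the fibroblast list. The part of these genes in the changes was not tested.

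In 22Rv1-DR 0 of the 9 genes passed with limma, beside 0.4% of 13757 genes, and 3 had an unadjusted p under 0.05. edgeR called 0 of the 9 and DESeq2 called 1. SLC7A11 had 6545, 4504 and 7355 normalised reads with shGATA2b, 5446, 3894 and 7209 with shGATA2a, and 3163, 2443 and 3809 with Control as deposited. Its log2 change was 0.88 (SE 0.23, adjusted p = 0.222). The adjusted p was 0.00642 with the replicate block, which called 1.21% of all genes, 0.0152 with DESeq2 and 0.0167 in a fit of all 27 libraries. With the offsets removed the controls read 3963, 3743 and 3809, shGATA2a replicate 2 falls among them, and the change was 0.56 (adjusted p = 0.412, and 0.102 with the block).

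HMOX1 in 22Rv1-DR changed by 0.78 (SE 0.32, adjusted p = 0.445), with all 3 shGATA2b libraries and 1 shGATA2a library above all controls, shGATA2b replicate 3 by less than 1 normalised read. NFE2L2 had 844, 827 and 1149 with shGATA2b, 835, 749 and 1078 with shGATA2a, and 696, 740.0 and 647 with Control. All 6 hairpin libraries were above all controls, which held for 2 of the 9 genes as deposited, for 1 with the SLC7A11 offsets removed, and for 2.9% of all genes. The change was 0.38 (SE 0.16, adjusted p = 0.469). The other changes lay between 0.18 and 0.30, except for KEAP1 at -0.24, and 8 of the 9 were positive. No gene of the macrophage and blood (2 tested) or fibroblast list (3 tested) passed here. Among the line identity genes, EPCAM rose in ARCaPM-DR (0.99, adjusted p = 0.0204) as 1 of 6 tested. In the other lines 0 passed without the block, and with it VIM (0.18, adjusted p = 0.0388) passed in DU145-DR, and FOLH1 (0.67, adjusted p = 0.0494) and KLK3 (-1.37, adjusted p = 0.0231) in 22Rv1-DR.

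Whether the knockdown effect itself differed between lines was tested in a fit of all 27 libraries. For ARCaPM-DR minus DU145-DR 1 of 9 genes passed, HMOX1, beside 7.13% of 15295 genes. Its effect was 1.59 higher in ARCaPM-DR (SE 0.39, adjusted p = 0.0132). Only shGATA2b was above the controls in ARCaPM-DR. The members were chosen on the hairpin difference in those libraries, so the test of HMOX1 is no independent support. Without ARCaPM-DR Control replicate 1 the difference was 1.27 with an adjusted p of 0.0695. The effect on TXNRD1 was 0.62 higher in ARCaPM-DR (SE 0.19, adjusted p = 0.052), which did not pass with limma and did with edgeR (adjusted p = 0.0392) and DESeq2 (0.00543).

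The effect on SLC7A11 was 0.85 higher in ARCaPM-DR than in DU145-DR (SE 0.27, adjusted p = 0.056) and 0.91 higher than in 22Rv1-DR (SE 0.27, adjusted p = 0.063). With the offsets removed, a treatment chosen after seeing the data, these differences were 0.92 (adjusted p = 0.0309) and 1.22 (adjusted p = 0.00749). The change of SLC7A11 in ARCaPM-DR had been seen before the genes were chosen, so these tests are no independent support. As deposited the differences passed with 7 and with 4 of the 27 libraries left out in turn. Most of the 7 were 22Rv1-DR libraries, whose removal left the difference between ARCaPM-DR and DU145-DR at 0.85. For ARCaPM-DR minus 22Rv1-DR, 0 of the 9 genes passed as deposited, beside 3.39% of all genes, with 4 at an unadjusted p under 0.05. edgeR called 0 of the 9 and DESeq2 called 1.

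For DU145-DR minus 22Rv1-DR, 0 of the 9 passed, beside 1.09% of all genes, with 1 at an unadjusted p under 0.05. That gene was HMOX1, whose effect was 1.44 lower in DU145-DR (log2 difference -1.44, SE 0.39, adjusted p = 0.0725). With the replicate block, which called 10.3% of all genes, its adjusted p was 0.00466 and that of GCLM, 0.52 higher in DU145-DR, was 0.0258. Without 22Rv1-DR Control replicate 2 or shGATA2b replicate 3, HMOX1 had an adjusted p of 0.0496 or 0.0322. In this comparison edgeR called 0 of the 9 and DESeq2 called 1, HMOX1.

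The control libraries showed how far the lines differed before any knockdown. For ARCaPM-DR minus DU145-DR 7 of 9 genes passed, 1 up and 6 down, beside 59.9% of all genes (28.8% up and 31.1% down). For ARCaPM-DR minus 22Rv1-DR 8 of 9 passed, 5 up and 3 down, beside 70.3% (31.9% up and 38.3% down), and for DU145-DR minus 22Rv1-DR 8 of 9 passed, all up, beside 70.5% (33.7% up and 36.7% down). Most genes of any kind thus differed between the lines. Quantile normalisation moved the median of all genes by about 0.1 in DU145-DR minus 22Rv1-DR, to 0.05 in place of -0.05.

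**Figure D5:**
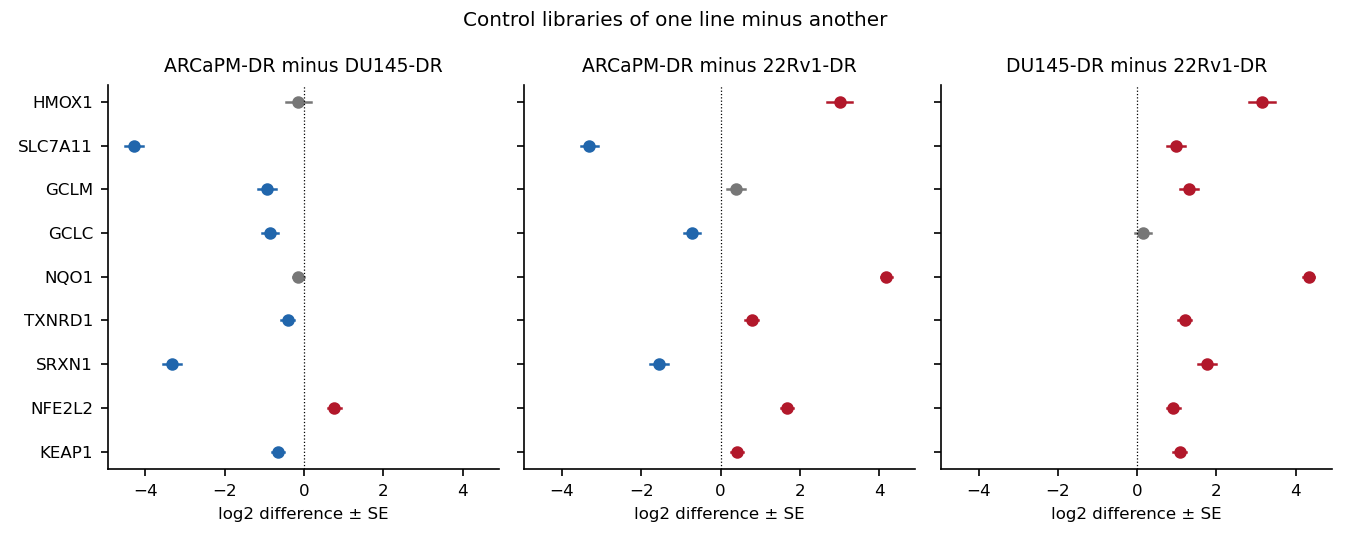
Log2 difference between the control libraries of 2 lines, with its standard error, for each gene. Red points were higher and blue points lower in the first-named line at an adjusted p of 0.05, from -4.29 for SLC7A11 in ARCaPM-DR minus DU145-DR to 4.33 for NQO1 in DU145-DR minus 22Rv1-DR.

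NQO1 separated 22Rv1-DR from the others. Its controls averaged 5219 ± 292 in ARCaPM-DR, 5792 ± 543 in DU145-DR and 288 ± 38.8 in 22Rv1-DR (SD, n = 3 each). The log2 difference was 4.18 for ARCaPM-DR (SE 0.14) and 4.33 for DU145-DR (SE 0.14) over 22Rv1-DR, while ARCaPM-DR and DU145-DR differed by -0.15 (adjusted p = 0.365), which did not pass, and by -0.43 after quantile normalisation (adjusted p = 0.00927). HMOX1 followed the same order, with 1145 ± 482, 1198 ± 149 and 137 ± 38.5, and differences of 3.01 and 3.15 over 22Rv1-DR.

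SLC7A11 and SRXN1 separated ARCaPM-DR. SLC7A11 averaged 313 ± 48.6 in ARCaPM-DR controls, 6080.1 ± 327 in DU145-DR and 3138 ± 684 in 22Rv1-DR as deposited. The last 2 means are 6413 ± 904 and 3838 ± 113 with the offsets removed. The log2 difference was -4.29 for ARCaPM-DR minus DU145-DR and -3.31 for ARCaPM-DR minus 22Rv1-DR, or -4.36 and -3.62 with the offsets removed. DU145-DR lay 0.98 above 22Rv1-DR (adjusted p = 0.000364), 0.73 with the offsets removed, and 0.63 (adjusted p = 0.0942) with the non-whole values left out. SRXN1 averaged 700.0 ± 170.2 in ARCaPM-DR, 6945 ± 972 in DU145-DR and 2030.3 ± 257 in 22Rv1-DR, with log2 differences of -3.33, -1.55 and 1.77 between the lines, all past the threshold.

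The regulators ran in different orders. NFE2L2 was highest in ARCaPM-DR at 2227 ± 186, then 1307 ± 59.0 in DU145-DR and 694 ± 46.5 in 22Rv1-DR, and all 3 differences passed. KEAP1 was 964 ± 128 in ARCaPM-DR, 1512 ± 123 in DU145-DR and 718 ± 39.3 in 22Rv1-DR. The step between ARCaPM-DR and 22Rv1-DR was 0.42 (adjusted p = 0.0207), and 0.36 (adjusted p = 0.0549) after quantile normalisation. It also did not pass without ARCaPM-DR Control replicate 1 (adjusted p = 0.0852) or replicate 3 (0.0704). GCLM was 649 ± 80.5, 1243 ± 253 and 506 ± 152 in that order of lines, and GCLC was 878 ± 196, 1567 ± 177 and 1421 ± 127. For GCLM, ARCaPM-DR and 22Rv1-DR differed by 0.39 (adjusted p = 0.128), which did not pass, and by 0.62 without 22Rv1-DR Control replicate 3 (adjusted p = 0.0212). For GCLC, DU145-DR and 22Rv1-DR differed by 0.14 (adjusted p = 0.557). TXNRD1 was 22943 ± 2330 in ARCaPM-DR, 30631 ± 3935 in DU145-DR and 13445 ± 2601 in 22Rv1-DR. Its difference of -0.41 between ARCaPM-DR and DU145-DR (adjusted p = 0.0267) had an adjusted p of 0.122 without DU145-DR Control replicate 3, 0.0559 without its replicate 2 and 0.111 without ARCaPM-DR Control replicate 3.

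Lists of related genes were set beside the members for the mean effect of both hairpins, where 18.5%, 16.7% and 0.4% of all genes were called in ARCaPM-DR, DU145-DR and 22Rv1-DR. Of 28 other NRF2 targets tested, 8 rose and 0 fell in ARCaPM-DR (median log2 change 0.25). ME1, which makes NADPH from malate, had 968, 849 and 1081 normalised reads with shGATA2b, 785, 513 and 723 with shGATA2a, and 389, 391 and 381 with Control, all hairpin libraries above the controls (log2 change 1.04, SE 0.15, adjusted p = 0.0012). SLC48A1 had 4261, 4718 and 3126 with shGATA2b, 2714, 3093 and 1687 with shGATA2a, and 1107, 1401 and 1035 with Control, again all above (1.40, SE 0.21, adjusted p = 0.0015). In DU145-DR 7 of the 28 rose and 1 fell (median 0.14), with ABCC2, a conjugate export pump, at 1.05 and PGD, of the pentose phosphate pathway, at 0.58 among those that rose. In 22Rv1-DR 0 of the 28 passed, with a median of 0.06. Under the replicate block, which called 38.8% of all genes in DU145-DR, 11 of the 28 rose and 2 fell there, and 1 rose in 22Rv1-DR, AKR1C2 (0.82, adjusted p = 0.0372).

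Among 15 NRF2 partners and regulators tested, 1 rose and 1 fell in ARCaPM-DR, BTRC (0.56), a ubiquitin ligase subunit, and DPP3 (-0.59), a KEAP1 binder. In DU145-DR 0 rose and 2 fell, MAFK (-0.64) and the coactivator CREBBP (-0.60), and in 22Rv1-DR 0 passed. BACH1 did not pass for the mean of the hairpins in any line, at -0.15 in ARCaPM-DR, 0.20 in DU145-DR and 0.05 in 22Rv1-DR; with the replicate block its adjusted p in DU145-DR was 0.0235. Of 16 heme and iron genes, 1 rose and 1 fell in ARCaPM-DR, SLC48A1 and ALAS1 (-0.48), the first enzyme of heme synthesis. In DU145-DR 1 rose, ABCB6 (0.42), and in 22Rv1-DR 0 passed. With the block in DU145-DR, 4 partners and regulators rose and 3 fell, and 4 heme and iron genes rose and 2 fell, FTH1 (0.25), the ferritin heavy chain, among those up and BLVRB (-0.35), a biliverdin reductase, among those down.

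Of the other glutathione and peroxide enzymes, 1 of 23 rose in ARCaPM-DR, GPX8 (0.79), beside 9.86% of all genes, and 6 fell, beside 8.62%, led by GLRX (-0.96), a glutaredoxin, and GSTO1 (-0.74), a glutathione transferase. In DU145-DR 2 of 24 rose, PRDX3 (0.37) and GSR (0.32), and 3 fell, among them TXN2 (-0.68) and PRDX2 (-0.59), beside 8.72% of all genes up and 7.98% down. In 22Rv1-DR 0 of 23 passed. Of 16 ATF4 targets, 3 rose in ARCaPM-DR and 0 fell, with SLC3A2 at 0.73 and SLC7A5 at 0.92, and 4 rose in DU145-DR, with VLDLR at 0.93 and DDIT3 at 0.56, and 0 passed in 22Rv1-DR. SLC3A2, the partner chain of SLC7A11, had 5753, 7029 and 6488 with shGATA2b, 3197, 4111 and 3451 with shGATA2a, and 2569, 2925 and 3171 with Control. Of 14 metal and heat stress genes, MT1F (0.55) rose and HSPB1 (-0.59) fell in ARCaPM-DR, BAG3 (-0.33) fell in DU145-DR and 0 passed in 22Rv1-DR. With the block in DU145-DR these counts were 3 up and 5 down for the glutathione and peroxide enzymes, 5 up and 1 down for the ATF4 targets, and 3 up and 2 down for the metal and heat stress genes.

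The genes whose pattern was most like that of HMOX1 were LOC284454 (r = 0.994), BEX5 (0.981), RNF121 (0.979), GPN2 (0.975) and TSPAN8 (0.966). The measure was Pearson's r over the 9 group means of log2 values after subtracting the mean of each line, among 12176 genes averaging 50 or more, and is a description with no test, since libraries are shared. Likeness of pattern is not likeness of size. RNF121 had 303, 277 and 354 normalised reads with shGATA2b, 211, 218 and 225 with shGATA2a, and 251, 209 and 229.7 with Control in ARCaPM-DR. BEX5 was at 1.25 or less and TSPAN8 at 3.11 or less in every ARCaPM-DR library. Among the members, GCLM was nearest to HMOX1 (r = 0.64, place 799), followed by NQO1 (0.62), GCLC (0.55) and SLC7A11 (0.55), and KEAP1 was farthest (0.01).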

How the data were processed

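Total RNA was sequenced in 27 libraries, isolated with an RNeasy kit and prepared by a standard Illumina protocol per the labels' protocols. TopHat2 2.0.9 and Cufflinks 1.3.0 were used on hg19 (GRCh37), per the submitters' processing notes. The sources used here do not name the counting program, its use of strand or the scaling tool. The authors deposited a signal per gene and library that, from the values, was a read count divided by a size factor for each library, so whole reads could be recovered; 199 values in 58 genes were not whole within 0.005 reads. The design allowed for normalised values or counts, and the scaled values were tested as the former. Reads without molecular identifiers are not independent molecules, so depth limits only counting error.

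In R 4.3.3, limma 3.58.1 with a trended prior was run on log2(value + 1) for each line alone, keeping genes that reached 10 in 3 or more of its libraries. Fold changes on this scale understate changes of low genes. Adjusted p-values are Benjamini-Hochberg over all genes of a contrast, with a threshold of 0.05, and "rose" and "fell" mean past it. Differences between lines came from a fit of all 27 libraries. The comparison of the hairpins in ARCaPM-DR had shown the members, so it has no test, and comparisons of each hairpin with Control share the controls. The members and all lists were chosen with earlier results of these data known. Named genes were the 9 members and GATA2, up to 2 genes up and 2 down by adjusted p for each list and line, the 2 largest hairpin differences each way for each list in ARCaPM-DR, and the 5 genes most like HMOX1; lists share some genes. BACH1 is followed into DU145-DR because this rule named it in ARCaPM-DR. Some genes the rule names are not reported here.

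Replicates of a group were correlated at r = 0.943 to 0.992 and differed by more than counting noise (chi-square per degree of freedom 6.36 to 104). The highest values, 104 and 99.8, were those of 22Rv1-DR Control replicate 3 against the other controls of its line. The next was 47.6, between ARCaPM-DR controls. With any 1 library of 22Rv1-DR left out, 0 of the 9 genes passed for knockdown there. Since the labels do not say that replicates are separate cultures, the spread on which p-values rest may be technical. Deviations from group means of same-numbered libraries correlated at 0.275 or more in DU145-DR and 0.211 or more in 22Rv1-DR, so the numbers pair those samples. In ARCaPM-DR they correlated at as little as 0.0559, within the range of differently numbered libraries (-0.755 to 0.310). Their median there was 0.583, above 0.393 in DU145-DR and 0.409 in 22Rv1-DR. Pairing is thus not assumed in ARCaPM-DR but may be present, and calls without the block may then miss genes. Alternatives were a pseudocount of 0.1, no filter, a filter of 50, quantile and median-of-ratios scaling, edgeR 4.0.16 and DESeq2 1.42.0 on recovered reads, a replicate block, each library left out, and, chosen after seeing the data, ways of treating the SLC7A11 offsets. The fits were tested on simulated data. RefSeq promoters were matched by symbol for 7 of 9 members.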

Additional observations from a re-analysis of the deposited data

Results flagged for a closer look

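The mean knockdown effect on HMOX1 differed between lines. The effect in ARCaPM-DR minus that in DU145-DR was 1.5859 on the log2 scale (SE 0.39, adjusted p = 0.0132, limma fit of 27 libraries). The mean change was 0.92 in ARCaPM-DR and -0.67 in DU145-DR. Against Control, shGATA2b and shGATA2a stood at 2.35 and -0.51 in ARCaPM-DR, and at -0.40 and -0.93 in DU145-DR. The members were chosen on the hairpin difference in ARCaPM-DR, so this test is no independent support. In ARCaPM-DR 3 of 6 hairpin libraries, all with shGATA2b, were above all controls, and in DU145-DR 5 of 6 were below them. Leaving out ARCaPM-DR Control replicate 1, the lowest of its controls at 699, gave 1.27 with an adjusted p of 0.0695. Single libraries that stand far from their group could not be tested in groups of 3.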

How the results depend on the processing

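The tally covers the members' values that the text prints singly, not every member in every comparison. Of those that passed, 1143 recomputed values kept direction and call and 19 lost the call; of those that had not, 75 gained it and 16 changed direction. The replicate block made 7 of 9 members pass for knockdown in DU145-DR (as it did with SLC7A11 offsets removed), 1 in 22Rv1-DR (SLC7A11 as deposited; 0 with offsets removed), 1 for the hairpins in DU145-DR (offsets removed: 1), and, for effects between lines, 5 in ARCaPM-DR minus DU145-DR, 6 in ARCaPM-DR minus 22Rv1-DR and 2 in DU145-DR minus 22Rv1-DR (offsets removed: 5, 6 and 2), where it called 20.5%, 14.9% and 10.3% of all genes in place of 7.13%, 3.39% and 1.09%. In ARCaPM-DR, where the numbers are not taken as pairs, the block called 45% of all genes for knockdown in place of 18.5%, and changed no member's direction. GCLC (adjusted p = 6.46e-06) and NFE2L2 (0.00282) passed there with it. For baselines the block as coded compared the lines at the fitted level of replicate 1 and not at the group means. Its baseline values are therefore no check on those differences. They were -0.26 (adjusted p = 0.0354) for NQO1 and -0.27 (0.109) for TXNRD1 in ARCaPM-DR minus DU145-DR, and 0.60 (0.00159) for GCLM in ARCaPM-DR minus 22Rv1-DR. The tally above includes such values. DESeq2 called 5 members for knockdown in DU145-DR, beside 2699 genes of all, and 1 in 22Rv1-DR, SLC7A11 as deposited, beside 185, and for effects between lines 3, 1 and 1 in the same order, beside 1461, 797 and 537. The fit of all 27 libraries called 1 in 22Rv1-DR, also SLC7A11 as deposited. In ARCaPM-DR minus DU145-DR, 2 members passed with edgeR, 3 with edgeR and offsets removed, 2 with the filter of 50, 3 with quantile normalisation and 2 with offsets removed. In ARCaPM-DR minus 22Rv1-DR, 1 passed with edgeR and offsets removed, 1 with quantile normalisation and 1 with offsets removed.

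Leaving out 1 library at a time, members called for knockdown ranged from 3 to 8 in ARCaPM-DR and from 2 to 5 in DU145-DR, and for effects between lines from 0 to 3, 0 to 1 and 0 to 1. All 16 changes of direction are among the following. The knockdown change of TXNRD1 in DU145-DR was -0.065 after quantile normalisation, and the HMOX1 difference ARCaPM-DR minus 22Rv1-DR was -0.047 with edgeR, with or without offsets. With a library left out, SRXN1 knockdown ranged from -0.22 to 0.11 in ARCaPM-DR and from -0.12 to 0.069 in DU145-DR, the HMOX1 baseline of ARCaPM-DR minus DU145-DR ranged from -0.46 to 0.17 and its effect difference ARCaPM-DR minus 22Rv1-DR from -0.17 to 0.45. Hairpin differences ranged from -0.10 to 0.15 for GCLM in DU145-DR, from -0.14 to 0.079 for NQO1 and from -0.061 to 0.38 for SLC7A11 in 22Rv1-DR. Why these values moved was not tested. All rest on 3 replicates a group, and 1 library held only 3.44 M reads.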
